A study of Mus musculus with 2 samples.

Results

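The 2′-5′ oligoadenylate synthetase (OAS) family was compared between control and *Drp1*LiKO mouse primary hepatocytes. The members were the 9 genes *Oas1a*, *Oas1b*, *Oas1c*, *Oas1f*, *Oas1g*, *Oas2*, *Oas3*, *Oasl1* and *Oasl2*, of 37074 gene names on the array, and all of their 14 probes were used. The genes were chosen by a rule drawn up with the ratios between these arrays in view, so their values are given as a description.

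RNA was measured in cells with a hepatocyte deletion of *Drp1*, also called *Dnm1l*, which encodes the GTPase that divides mitochondria, to find the genes whose expression the deletion alters. Control cells came from *Drp1*flox/flox sibling littermates, labelled wild type control in the repository, and carried floxed alleles without Cre. *Drp1*LiKO cells came from *Alb-Cre* Tg/+ *Drp1*flox/flox mice, in which the albumin promoter drives Cre in hepatocytes. Both were labelled as C57BL/6 background, their labels name no treatment, and neither age, sex nor pooling of animals was stated for these cultures. Livers were perfused with collagenase, hepatocytes were pelleted at low speed and plated on collagen, and cells were harvested 24 h after seeding. One Cy3-labeled array was hybridized per genotype (n = 1 each), on 1 slide read in 1 scan. No test was therefore possible, no p-value is given, and every difference describes these 2 arrays.

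OAS proteins are sensors of double-stranded RNA, a by-product of virus replication and also of mitochondrial transcription. On binding it they join ATP into 2′-5′-linked oligoadenylates (2-5A), a messenger of the antiviral response. OAS genes are standard interferon-stimulated genes: interferon receptors act through the kinases Jak1 and Tyk2 to form ISGF3, a complex with Stat2 and Irf9 that binds the promoters of its targets.

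Each member was read through 60-base probes. The sequences that follow are the first 30 bases of the probes with the 4 highest ratios and of the 3 *Oas1b* probes, whose ratios differed. They show what each value was read from. Capitals mark the 14-base run that the *Oas1a* and *Oas1f* probes share, and the others have no capitals.
Oasl2, base 3049 of its transcript: tgctctagaatggtaccaatccagtatcaa
Oas1a, base 1359: TGTCCACCTGTTGGaaggttctgtctgaca
Oas1f, base 1413: ccTGTCCACCTGTTGGgaggttctgtccaa
Oas1g, base 542: gaagcctaatcccttaatctacaccatcct
Oas1b, base 600: ggcaagttatcgatctgctttatggggctt
Oas1b, base 1554: cagaaggagaatattatggtttgtatatgg
Oas1b, base 1773: gtgataatggactgaacttctgaacctgta
Apart from *Oas1a* and *Oas1f*, no probes of different family genes shared a run of more than 10 bases. The array's annotation nevertheless listed transcripts of *Oas1g* as well as *Oas1a* for the *Oas1a* probe, so signal from both genes cannot be told apart there.

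All 9 genes were detected, and all 9 had the higher scaled signal in *Drp1*LiKO cells. For the brightest *Oas1b* probe the log2 ratio was only 0.02, below its noise between spots of 0.064, so its direction is not resolved. The other detected *Oas1b* probe had 0.84, with a noise of 0.16. Of the 9 genes, 7 were past a Z score of 2, the size limit used by the study, which here was a log2 ratio of 1.30 or 2.46-fold. Of all 20165 genes detected, 705 (3.5%) were past it in this direction and 566 (2.81%) in the other. Since the members were chosen by this contrast, nothing is read from the difference in these shares. The median log2 ratio of the members was 3.87, with *Oas2* and *Oas3* at their bounds, and that of all genes was -0.05. Of the members past the limit the nearest to it was *Oas3* with a bound of 2.47, and of those short of it the nearest was *Oas1c* with 0.91. Of the other genes past it, *Oas1a*, *Oas1f*, *Oas1g* and *Oasl2* lay between 4.14 and 4.37, *Oas2* had a bound of 3.87, and *Oasl1* lay at 3.15. Each probe was printed once per array. The noise of a ratio was taken from those probes printed 10 times that were nearest in signal. It was 0.058 to 0.16 on the log2 scale for the 9 probes measured on both arrays. It covers spots of 1 array and not cultures or animals. The same control spot SD, 0.11, served signals from 27.1 to 210, so the noise of dim ones such as *Oas1g* and *Oasl2* may be understated.

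**Figure D1:**
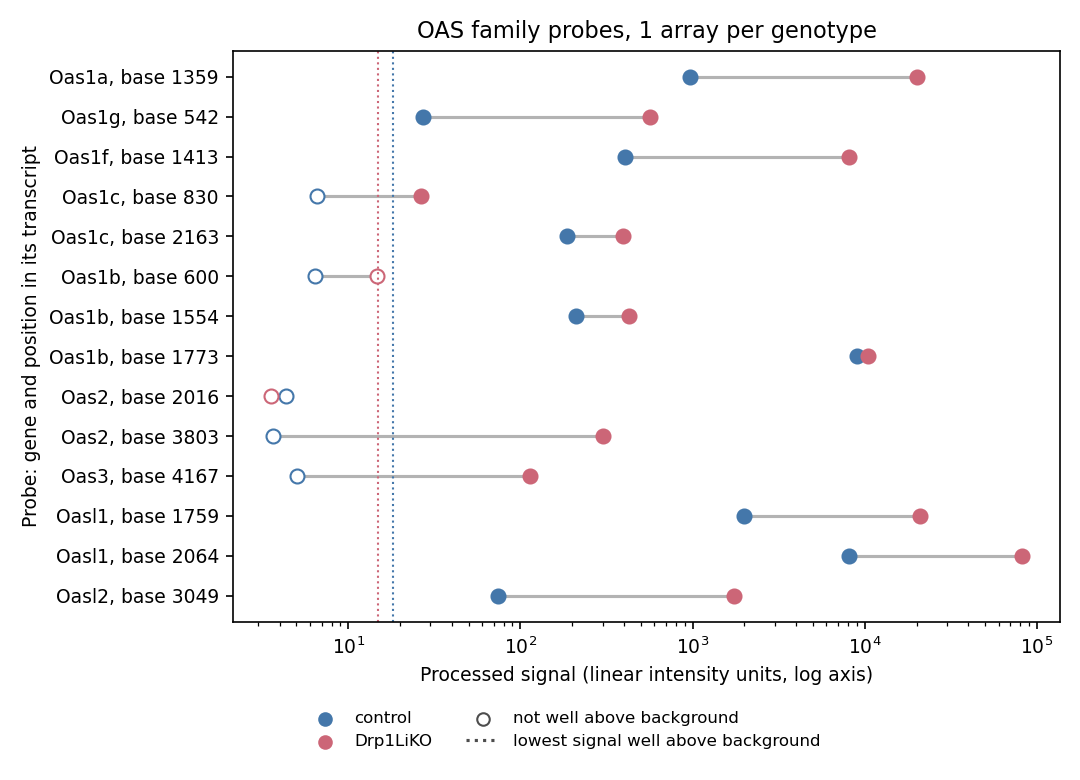
Processed signal (linear intensity, log axis) of the 14 OAS family probes on the control array (blue) and the *Drp1*LiKO array (red), 1 row per probe with its position in the transcript. Open circles are signals not well above background and dotted lines are the lowest signals that were (18.2 in control, 14.98 in *Drp1*LiKO). Both *Oasl1* probes lie at 1980 or more in control cells, whereas the *Oas2* and *Oas3* control signals lie below the dotted lines.

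The *Oas1* group encodes the smallest synthetases. *Oas1a* (NM_145211, mm9 chr5:121346735-121346794, minus strand) gave 965 units of processed signal in control against 20175 in *Drp1*LiKO cells, an 18.4-fold difference after scaling. *Oas1g* (NM_011852, mm9 chr5:121332000-121332059, minus strand), an active synthetase like *Oas1a*, gave 27.1 and 565, also 18.4-fold. Its control signal was close to the lowest that counted as above background, 18.2, and with normexp correction its log2 ratio was 2.60 in place of 4.20. Normexp is a background correction that here added an offset of 50 to every signal, which by itself shrinks the ratios of dim signals. *Oas1f* (NM_145153, mm9 chr5:121307929-121307988, plus strand) gave 406 and 8103, which is 17.6-fold. The 3 log2 ratios, 4.20, 4.20 and 4.14, differed by no more than the noise between spots.

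*Oas1c* and *Oas1b* stood apart from these 3. *Oas1c* (NM_033541) was read at base 2163 and gave 185 in control against 396 in *Drp1*LiKO cells, with a log2 ratio of 0.91 and a Z score of 1.41. Its second probe, at base 830 across an exon junction, was dim in control (6.60, not well above background) and reached 26.4 in *Drp1*LiKO cells, a bound of 0.35. Both probes were higher in *Drp1*LiKO cells, and neither passed the limit. *Oas1c* passed it with no filter on dim probes (Z score 2.14) and with a robust Z score (2.62), where the ratio itself was the same.

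*Oas1b* is the flavivirus resistance gene, and laboratory strains such as C57BL/6 carry a premature stop codon in it. RefSeq classes it as a transcribed pseudogene. Its brightest probe, at base 1773 (mm9 chr5:121274109-121274168, plus strand), gave 9057 in control against 10419 in *Drp1*LiKO cells, with a log2 ratio of 0.02. The probe at base 1554 (mm9 chr5:121273890-121273949) gave 210 and 428, a log2 ratio of 0.84 and a Z score of 1.30. The probe at base 600 was not well above background on either array (6.43 and 14.7). None of the 3 passed the limit, but the ratios of the 2 detected probes differed by more than the noise between spots. The annotation of the base 1773 probe listed no transcript that the RefSeq table holds, whereas the other probes listed NR_003507, the *Oas1b* entry. This probe also shared a run of 17 bases with the probe of another transcript, AK135063, the longest run of any member's probe.

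*Oas2* and *Oas3* encode larger synthetases built from repeats of the catalytic unit, and *Oas3* is the main source of 2-5A in human cell lines. The *Oas2* probe at base 3803 (NM_145227, mm9 chr5:121180343-121180402, minus strand) gave 3.67 in control, which is not well above background, against 303 in *Drp1*LiKO cells, at least 14.6-fold higher. The second *Oas2* probe, at base 2016, was not well above background on either array (4.36 and 3.56). *Oas2* therefore rests on 1 of its 2 probes. *Oas3* (NM_145226, mm9 chr5:121203598-121203657, minus strand) gave 5.01 in control, likewise not well above background, against 114 in *Drp1*LiKO cells, at least 5.53-fold higher. A bound takes the lowest signal well above background on the control array in place of the dim one. These 2 genes moved most with the treatment of dim signals: the log2 ratio of *Oas2* was 2.16 with normexp correction and 6.18 without a floor, and that of *Oas3* was 0.97 and 4.33, each past a Z score of 2 on its own scale.

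*Oasl1* and *Oasl2* encode OAS-like proteins with ubiquitin-like repeats at the C-terminus. *Oasl1* has lost synthetase activity and is known to restrain translation of *Irf7*, whereas *Oasl2* is an active synthetase. *Oasl1* (NM_145209) was the one past the limit with 2 detected probes. The probe at base 2064 (mm9 chr5:115387861-115387920, plus strand) gave 8136 in control against 82211 in *Drp1*LiKO cells, 8.90-fold. The probe at base 1759 (mm9 chr5:115387556-115387615) gave 1980 and 21050, 9.37-fold. The 2 log2 ratios, 3.15 and 3.23, lay within the noise between spots. *Oasl2* (NM_011854, mm9 chr5:115362168-115362227, plus strand) gave 74.3 and 1748, which is 20.7-fold and the highest ratio of the members measured on both arrays with this processing. With normexp correction *Oas1a* (4.15) and *Oas1f* (3.97) lay above it (3.58). Among the 17735 genes measured on both arrays, *Oasl2* ranked 4, *Oas1a* 6, *Oas1g* 7 and *Oas1f* 9. The 5 other genes nearest to the median log2 ratio of the measured members (4.14) were *Ifit3* (4.19), *Ms4a7* (4.06), *Dcn* (4.06), *Casp4* (4.22) and *Ifit3b* (4.01), a likeness over 2 arrays only.

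**Figure D2:**
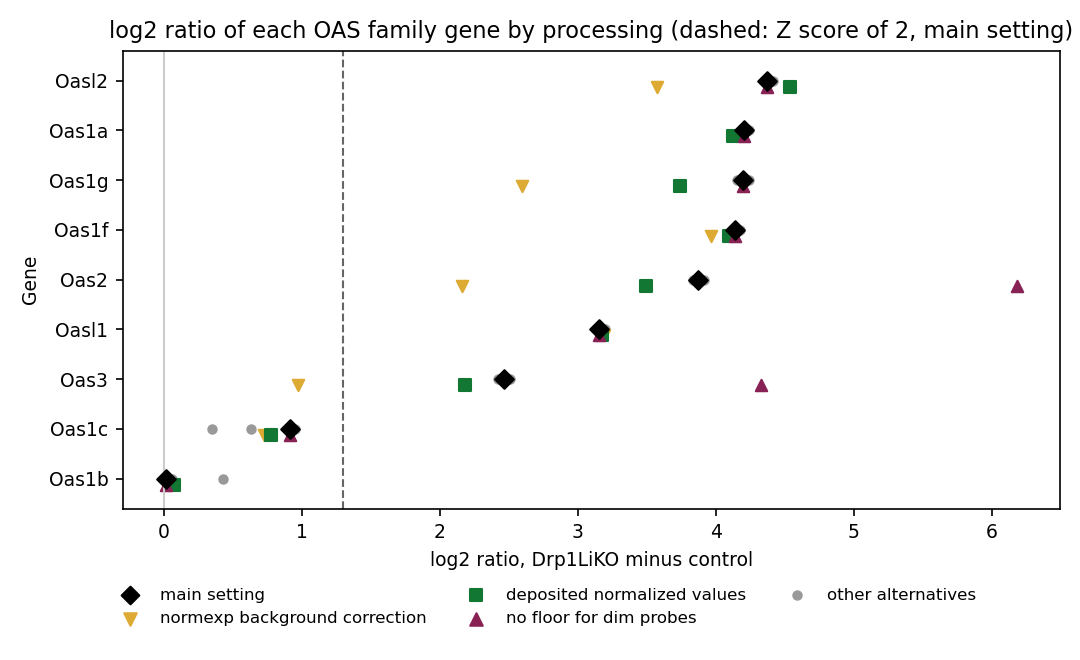
log2 ratio (*Drp1*LiKO minus control, horizontal axis) of each OAS family gene with the main processing (black diamonds) and with the alternatives, of which normexp correction, the deposited normalized values and no floor are marked. The dashed line is a Z score of 2 with the main processing, at 1.30. *Oas1a*, *Oas1f* and *Oasl1* barely moved, whereas *Oas2* spanned 2.16 to 6.18 and *Oas3* 0.97 to 4.33.

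The genes lie on chromosome 5 as 2 clusters, 5.79 Mb apart by the probes' mm9 positions. Probes of *Oas1* to *Oas3* span 166 kb and those of *Oasl1* and *Oasl2* 25.8 kb. Within the larger cluster the ratios did not follow position. *Oas1c*, at 0.91, and *Oas1b*, at 0.02 on its brightest probe, lie between *Oas3*, with its bound of 2.47, and *Oas1f*, at 4.14. The other OAS genes on the array, all in this cluster, are no members. *Oas1e* gave 32.4 in control against 57.7 in *Drp1*LiKO cells, with a log2 ratio of 0.65, and *Oas1d*, which is known for its role in the oocyte, gave 43.2 and 58.7, a ratio of 0.26. Both probes of *Oas1h* were not well above background on either array. Of the 26 detected genes of other families within 250 kb of a member's probe, 0 were past the limit in the higher direction, beside 3.5% of all genes, 9 were higher, 15 were lower and 2 had a dim control signal and a bound that gives no direction. Their median log2 ratio was -0.08. *Dtx1*, 50.0 kb from *Oas2*, had the highest ratio, 0.99. The transcript *Gm38700*, 136 kb from *Oas2*, was lower, with 101 in control and 5.36, not well above background, in *Drp1*LiKO cells. Its bound was -2.94 (Z score -4.50). It was the 1 neighbour past the limit in the lower direction, beside 2.81% of all genes.

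**Figure D3:**
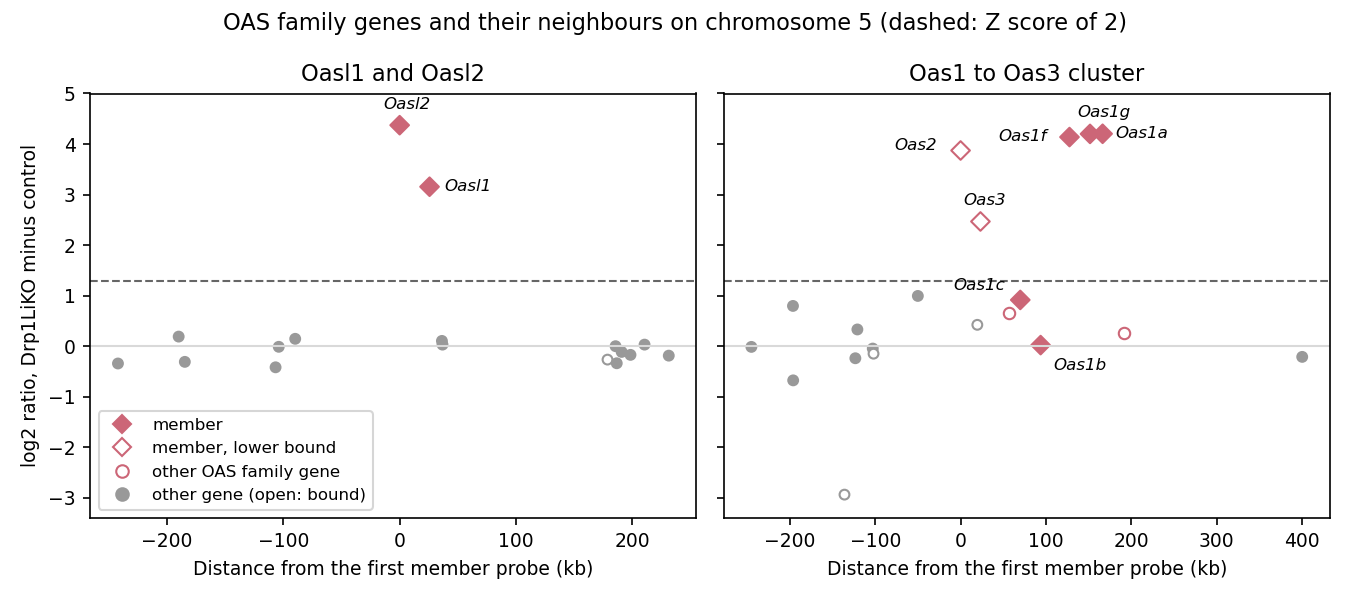
log2 ratio (*Drp1*LiKO minus control, vertical axis) of OAS family genes and their neighbours against distance in kb from the first member probe of each cluster. Diamonds are members and open diamonds lower bounds, open red circles are other OAS family genes, grey circles are other genes (open for bounds), and the dashed line is a Z score of 2. Of the other genes the highest is *Dtx1* at 0.99, while 7 members lie above the line.

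Promoters were searched for GAAA followed by any 2 bases and a second GAAA, the core of the interferon-stimulated response element to which ISGF3 binds, on both strands from 250 bases before to 50 after the start in the RefSeq promoter table (GRCm38.p6), which held 7 of the 9 members, all but *Oas1b* and *Oas2*. A match stood in 4 of these 7 and in 3.44% of all 32851 promoters in the table. The windows show each match in capitals with up to 25 bases on either side, 5′ to 3′ on the strand of the gene.
Oas1a, chr5:120907505-120907570, minus strand: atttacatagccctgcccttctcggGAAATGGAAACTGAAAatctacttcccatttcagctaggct
Oas1g, chr5:120887591-120887656, minus strand: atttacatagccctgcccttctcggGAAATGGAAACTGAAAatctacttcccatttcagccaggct
Oas1c, chr5:120812588-120812653, minus strand: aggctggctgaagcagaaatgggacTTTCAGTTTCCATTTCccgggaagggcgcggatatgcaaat
Oas3, chr5:120777700-120777759, minus strand: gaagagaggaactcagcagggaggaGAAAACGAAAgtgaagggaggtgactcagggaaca
In *Oas1a* and *Oas1g* 2 matches overlap in a run of 16 bases that starts 20 and 18 bases before the transcription start, and the windows are identical in 65 of 66 bases. *Oas1c* holds the same 16 bases on the opposite strand, starting 114 bases before the start, and *Oas3* holds 1 match 75 bases before it. The matches did not sort the members by ratio. *Oas1c*, with a match, was short of the limit, and *Oas1f*, *Oasl1* and *Oasl2*, past it, held none in this window, which says only that these letters are not there.

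Downstream of OAS, none of the 3 genes listed for the 2-5A pathway was past the limit, beside 3.5% of all genes. *Abce1*, which encodes a ribosome recycling factor, had a log2 ratio of -0.42, *Pde12*, a phosphodiesterase that degrades 2-5A, -0.11, and *Akap7*, with a 2-5A phosphodiesterase domain, 0.85 on its brightest probe, though its 3 probes ranged from -0.42 to 0.85. Of the 3 genes, 1, *Akap7*, lay above the lowest measured member, *Oas1b* (0.02 on its brightest probe). It lay below the other member short of the limit, *Oas1c* (0.91). Since the members were chosen on these ratios, nothing is read from the distance to those past the limit.

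Among 8 other genes of double-stranded RNA sensing, 7 were higher on their brightest probes, with a median log2 ratio of 0.72. The median of all genes was -0.05, and the share of them that were higher was not counted. Of the 8 genes, 2 were past the limit on their brightest probes, beside 3.5% of all genes. These 2 were *Zbp1*, a sensor of Z-form nucleic acid, with 259 in control against 1533 in *Drp1*LiKO cells (2.38), and *Dhx58*, which encodes the RIG-I-like receptor LGP2, with 258 and 926 (1.66). *Ifih1*, encoding MDA5, stood at 1.04 and *Ddx58*, encoding RIG-I, at 0.99 on its brightest probe. The 4 *Ddx58* probes ranged from 0.93 to 1.36, so its side of the limit depends on the probe. The study counted both genes among those upregulated. *Adar*, an editor of double-stranded RNA, stood at 0.45, *Tlr3* at 0.31 and *Eif2ak2*, encoding the kinase PKR, at 0.25. *Mavs*, the mitochondrial adaptor of RIG-I and MDA5, stood at -0.14. The other *Tlr3* probe went the other way, with -0.47, and the other *Adar* probe had 0.93. Of the DNA-sensing pair, *Mb21d1*, encoding cGAS, was lower, with 270 in control against 115 in *Drp1*LiKO cells (-1.42, Z score -2.16), though its other probe had -0.66, and *Tmem173*, encoding STING, was higher at 1.24 and short of the limit.

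Upstream, 8 of 18 interferon genes on the array were detected and 10 were not well above background on either array. *Ifnb1*, which encodes interferon beta, gave 6.27 in control, which is not well above background, against 93.3 in *Drp1*LiKO cells, at least 4.51-fold higher. It was the 1 ligand past the limit, beside 3.5% of all genes. Of the alpha interferons detected, *Ifna5* (-0.71) and *Ifna9* (-0.36) were lower, and *Ifna1* (0.37) and *Ifna11*, with a bound of 0.97 from 6.84 to 40.5, were higher. *Ifna14* had a bound of 0.28, and all had signals under 50. *Ifnl3* had 0.39, and *Ifnab* had 0.15 on its brightest probe and -0.52 on its other. Of the 16 genes listed for interferon receptors, ISGF3 and their regulators, 11 were higher, with a median of 0.27. Of these 16 genes 4 were past the limit, beside 3.5% of all genes. Those past it were the ubiquitin-like modifier *Isg15* (3.42), its protease *Usp18* (2.41), the transcription factor *Irf7* (1.97) and the ISGF3 subunit *Stat2* (1.35). *Irf9* stood at 1.00, and the receptor genes *Ifnar1* and *Ifnar2* at 0.58 and 0.03 on their brightest probes, with other probes down to -0.38 and -0.29. *Irf3*, *Socs1* and *Irf1* had 0.11, 0.12 and -0.19. *Ifnlr1* had 0.85, *Tyk2* 0.43 on its brightest probe and -0.56 on its other, and *Jak1* -0.22. *Ifngr1*, *Ifngr2* and *Il10rb* each had -0.15.

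**Figure D4:**
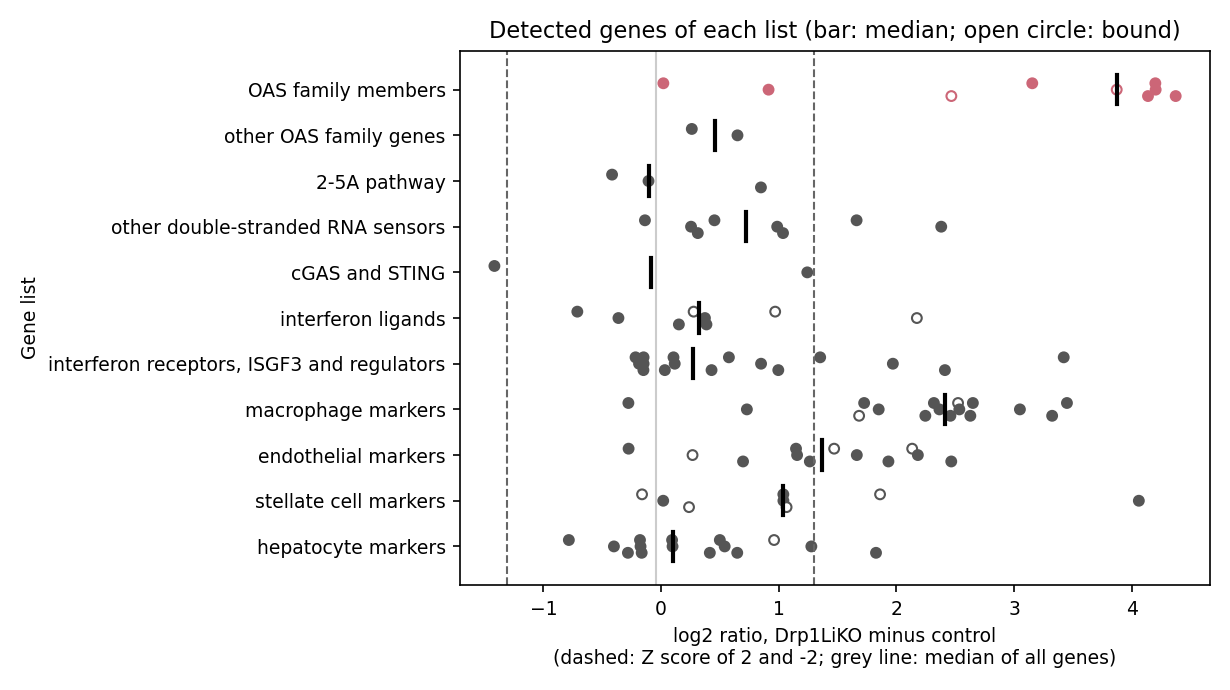
log2 ratio (*Drp1*LiKO minus control, horizontal axis) of each detected gene by list, with bars for medians, open circles for bounds, dashed lines for Z scores of 2 and -2 and a grey line for the median of all genes. Of the lists plotted the OAS members, chosen on these ratios, have the highest median, 3.87, followed by macrophage markers with 2.41, and the 2-5A pathway has -0.11.

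Of the hepatocyte markers on the array all 15 were detected, and the median of their log2 ratios was 0.10. *Serpina1a*, the brightest, gave 338486 in control against 339334 in *Drp1*LiKO cells, and *Alb* gave 219613 and 266703. *Pck1* was not well above background in control (11.7). *Ahsg* was the 1 past the limit, at 1.83, and *Cyp2e1* had the lowest ratio, -0.78. Many markers of macrophages, endothelial and stellate cells were also higher in *Drp1*LiKO cells. Beside the counts of markers past the limit, 3.5% of all genes were past it in this direction. Of 18 macrophage markers 16 were detected, and on their brightest probes 15 were higher and 14 past the limit, with a median of 2.41. Their summed signal was 9415 in control against 27256 in *Drp1*LiKO cells. *Mpeg1* had 1.73 on its brightest probe and -0.49 on its other, and *Csf1r* had 0.73 and -0.02. *Cd68*, the brightest, gave 2346 and 9593. *Marco*, a scavenger receptor gene, had the highest ratio (3.45) and *Itgam* the lowest (-0.28), *Timd4* and *Cd163* were not well above background on either array, and *Clec4f* and *Vsig4* were so on the control array. Of 12 endothelial markers 11 were higher and 6 past the limit, with a median of 1.37 and summed signals of 4593 and 9668, most of which came from *Egfl7* (0.70). *Kdr* (2.47) and *Flt4* (-0.28) had the extreme ratios. The 4 detected *Stab2* probes ranged from -0.25 to 1.15. Of 8 detected stellate cell markers 7 were higher, 2 of them past the limit, and *Des*, dim in control, had a bound that gives no direction. Their median was 1.04 with 4 of 8 at bounds. *Acta2*, the brightest (0.02), made up most of their summed signals of 21838 and 29068, and without it these were 401 and 4427. The 3 detected *Acta2* probes ranged from 0.02 to 2.20, so its ratio depends on the probe. *Dcn* had the highest ratio, 4.06. *Oas1a*, *Oas1f*, *Oas1g*, *Oas2* and *Oasl2* had ratios above that of *Marco*, and *Oasl1* and the *Oas3* bound lay below it. Since the members were chosen on these ratios, nothing is read from this order. Genes of other cells reached the same range, as *Dcn* did in the stellate list, above the *Oas2* bound, and the macrophage gene *Ms4a7*, on none of the lists, with 4.06. With normexp correction the members above the highest macrophage marker were *Oas1a*, *Oas1f*, *Oasl1* and *Oasl2*. Of 6 plasmacytoid dendritic cell markers, a cell type known for interferon production, 3 were detected and 0 were past the limit, with a median of 0.09, from *Pacsin1* (-0.79) to *Tcf4* (0.41), and *Siglech*, the brightest, had 0.09. T and NK cell markers were not well above background on either array for 7 of 8 genes, and *Cd3e* had -0.37 on its brightest probe and 0.26 on its other. Cholangiocyte markers had 4 of 6 detected and 0 past the limit, from *Spp1*, the brightest (-0.46), to *Krt7* (a bound of 0.59). Neutrophil markers had 3 of 7 detected and 1 past it, *Ly6g* (a bound of 1.90), with *Csf3r*, the brightest, at 0.17. Of 5 B cell markers 2 were detected: *Pax5* was lower on its brightest probe (-0.52) and higher on its other (0.38), and *Ms4a1*, dim in control, had a bound that gives no direction. The part of other cells in the OAS ratios was not tested, and in RNA of a whole culture more cells of a type and more RNA per cell cannot be told apart.

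The deletion itself was read through *Dnm1l*, whose brighter probe gave 2602 in control against 1217 in *Drp1*LiKO cells, with a log2 ratio of -1.28 and a Z score of -1.95. The other probe gave 22.8 and 20.9, a ratio of -0.31, and whether either lies in the deleted part was not determined. On both arrays 0 spots were saturated, and no spot of a member's probe was marked as an outlier. Probes well above background made up 48.2% of the control array and 52.1% of the *Drp1*LiKO array, and with 2 arrays the precision of each value is limited by their number.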

How the data were processed

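RNA of control and *Drp1*LiKO primary hepatocytes was labeled with Cy3 and hybridized to Agilent mouse 60-mer arrays, 1 per genotype. For both arrays the authors deposited scanner output, whose processed signal is a linear intensity corrected for background by Feature Extraction (10.7.1.1 in the file headers, 9.5.1.1 in the submitters' processing notes), with mm9 coordinates. They also deposited normalized intensities, used as an alternative; the ranks of this table correlated with the scanner signals at 1.00 for the control and 0.958 for the *Drp1*LiKO array, and its method is not given in the sources used here. Columns of gene names, positions, sequences and flags in the deposited files were used as given.

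Control spots and outlier spots were left out, signals were log2-transformed, averaged over the spots of a probe and scaled to each array's 75th percentile (a signal of 313 for control and 356 for *Drp1*LiKO). Of 56600 probes, 30275 were kept, as they were well above background on 1 array or both. A dim signal was raised to the lowest one well above background. A gene was its brightest probe, and the Z score used the mean and SD (0.65) over probes kept. With 1 array per genotype no test or error over replicates was possible. The steps were tested on simulated data. The members and gene lists were chosen with earlier results of these data known. Genes named were all members, the detected genes of the pathway lists, the extremes and brightest of the cell type lists and the 5 genes nearest in ratio. Of the neighbours within 250 kb only the highest and the lowest were named. *Clec4f*, *Vsig4*, *Timd4*, *Cd163*, *Pck1*, *Des* and *Ms4a1*, named for dim signals, *Mpeg1*, *Csf1r* and *Stab2*, named for probes that differ, and *Alb* were chosen after their values were seen. Of the 150 names listed, 146 were on the array. Some genes are not reported here and were left out of the lists. The number of alternatives was 12. Calculations used Python 3.11.15, matplotlib 3.10.9, numpy 2.4.6 and pandas 2.3.3, and, for normexp with an offset of 50, limma 3.58.1 in R 4.3.3.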

Additional observations from a re-analysis of the deposited data

How the results depend on the processing

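All 9 members kept a positive log2 ratio under each alternative that kept them, and their side of the limit in 104 of 106 values, the exceptions being the 2 for *Oas1c* given above. For the brightest *Oas1b* probe the ratio was as low as 0.01, so the sign from that probe carries little weight. The *Oas1b* probe at base 1554 had 0.84 with the main processing. The count past the limit was 7 in most settings, 8 with no filter on dim probes or a robust Z score, and 5 with probes required to be well above background on both arrays, where *Oas2* and *Oas3* drop out. The median log2 ratio of 3.87 became 2.60 with normexp correction, 3.50 with the deposited normalized values, 4.14 with that filter on both arrays and 4.20 without a floor. The last 2 follow from leaving out or unbounding *Oas2* and *Oas3*. The normexp offset of 50 by itself shrinks the ratios of dim signals. Its share in the first change was not tested, nor was the cause of the second. With no filter the median of all genes was -0.47, the log2 ratio of the 2 floors, which genes dim on both arrays receive, and no member's ratio moved. Dim control signals limit *Oas2*, *Oas3* and *Oas1g* the most. No paired analysis was possible because there was 1 array per genotype.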
